A study of Homo sapiens with 12 samples.

Results

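The SGK and PIM kinases are 6 serine/threonine kinases in 2 families: SGK1, SGK2 and SGK3, and PIM1, PIM2 and PIM3. They were taken by symbol from the deposited gene count table, which holds 60612 gene rows, and all 6 were found. The list was chosen with it known from these counts that SGK1 and PIM1 stood higher at 30 min than at 0 min. The other 4 genes are their paralogs. The values of that comparison chose the genes, so they are given below as a description with no test.

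SGK1 belongs to the AGC kinases, next to AKT. It is activated downstream of PI3K, through phosphorylation by mTORC2 and PDK1, and is known for raising sodium transport by holding back the ubiquitin ligase NEDD4L. Its mRNA and protein turn over fast, and its transcription is known to respond to glucocorticoids, serum and osmotic stress. PIM kinases need no activation loop phosphorylation, so their output is set mainly by how much protein is made and how fast it is lost. PIM1 is a classical target of cytokine signalling through JAK and STAT proteins, and PIM kinases act on the cell cycle, translation and survival.

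The data are counts of polyadenylated RNA from HepG2, an established human liver cancer line, in 12 libraries that fall into 4 groups of 3. The labels call them triplicates and do not say whether they came from separate cultures, so p-values below measure the spread between these samples, which may be technical. The first group was labelled untreated and stands for 0 min, and the remaining groups received the auxin-type weed killer 2,4-D at 0.001 µM for 10, 30 or 360 min. The cells of every group were detached with trypsin before extraction. All groups come from 1 cell line, and no untreated libraries of the later times were analysed here, so that exposure and elapsed time cannot be told apart.

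On GRCh38, SGK1 (ENSG00000118515) lies on the minus strand of chromosome 6 at 134169246 to 134318112 and PIM1 (ENSG00000137193) on the plus strand of the same chromosome at 37170203 to 37175426. SGK2 (ENSG00000101049) spans 43558968 to 43588237 on the plus strand of chromosome 20, and SGK3 (ENSG00000104205) spans 66667596 to 66862022 on the plus strand of chromosome 8. PIM2 (ENSG00000102096) lies on the minus strand of chromosome X at 48913182 to 48919024, and PIM3 (ENSG00000198355) on the plus strand of chromosome 22 at 49960513 to 49964080. All are protein-coding. SGK1 has 30 annotated transcripts and PIM1 has 3, and the counts do not separate them. In GENCODE 29, SGK3 shares 391 bases of exon with C8orf44 on the same strand, under an identifier that the count table lacks. The count table holds C8orf44 under another identifier, with 888 counts over all libraries. Whether that model shares exons with SGK3 was not checked. The readthrough gene model C8orf44-SGK3 held 138 counts over all libraries, 0.682% of those of SGK3. For SGK2 the overlapping model Z98752.3 held 13 counts, 0.0413% of those of SGK2.

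Library totals ran from 29766148 to 83539763 counts, and the 3 counts that a value of 0 still allows amount to 0.0359 to 0.101 CPM (counts scaled to the size of the library). Each member had at least 348 counts in every library. Of 11 hepatocyte and HepG2 markers all were present in every library, with ALB at 7870 to 9520 CPM and AFP at 1360 to 1640 CPM. Of the 12 markers of other liver and blood cells, PTPRC, MS4A1 and DCN were at 0 in all 12 libraries, while CD68 was at 48.6 to 64.6 CPM. The untreated libraries differed among themselves in immediate early genes: FOS was at 14.1 CPM in replicate 1 and at 106 and 136 CPM in replicates 2 and 3. Mitochondrially encoded genes took 3.55% to 4.39% of counts in 7 libraries, among them 0 min replicate 1 and all of 10 min, and 2.52% to 2.74% in the other 5. The split reached beyond these genes. Between libraries of 1 group, the chi-square of the counts per gene was 6.35 to 9.29 for pairs on the same side. For pairs on opposite sides it was 18.3 to 34.49. The cause of the split was not tested.

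The upstream sequences of the genes are shown because SGK1 and PIM1 share a time course in these data while PIM2 does not. Part of that likeness was fixed by the way SGK1 and PIM1 were chosen. RefSeq promoter sequences on GRCh38.p14 were matched by symbol for 4 of the 6 genes, with 3 separate starts for SGK1; SGK2 and SGK3 were not matched. Each line gives the 250 bases before a start, 5′ to 3′ on the strand of the gene, and capitals mark TATA boxes (TATAAA), GC boxes (GGGCGG) and CCAAT boxes on either strand. SGK1 start 1 (chr6:134318113-134318362, minus strand) is the most distal and SGK1 start 3 (chr6:134174867-134175116, minus strand) the most proximal; PIM1 is chr6:37169902-37170151 (plus strand) and PIM2 is chrX:48919025-48919274 (minus strand).
SGK1 start 1: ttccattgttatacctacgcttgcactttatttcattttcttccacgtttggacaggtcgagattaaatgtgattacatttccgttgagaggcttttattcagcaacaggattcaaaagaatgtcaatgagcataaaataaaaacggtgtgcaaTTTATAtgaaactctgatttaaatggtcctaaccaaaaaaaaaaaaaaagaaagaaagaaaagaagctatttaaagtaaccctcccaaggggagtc
SGK1 start 3: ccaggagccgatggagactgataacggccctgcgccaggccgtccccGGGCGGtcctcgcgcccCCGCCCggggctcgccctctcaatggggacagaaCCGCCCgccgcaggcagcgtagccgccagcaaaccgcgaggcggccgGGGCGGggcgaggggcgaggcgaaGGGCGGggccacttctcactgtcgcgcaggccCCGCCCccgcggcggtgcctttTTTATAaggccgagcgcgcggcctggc
PIM1: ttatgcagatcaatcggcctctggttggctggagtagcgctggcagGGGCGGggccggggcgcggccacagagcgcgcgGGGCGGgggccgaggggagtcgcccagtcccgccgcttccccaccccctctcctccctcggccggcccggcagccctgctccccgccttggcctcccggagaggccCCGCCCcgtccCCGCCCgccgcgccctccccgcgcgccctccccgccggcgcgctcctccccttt
PIM2: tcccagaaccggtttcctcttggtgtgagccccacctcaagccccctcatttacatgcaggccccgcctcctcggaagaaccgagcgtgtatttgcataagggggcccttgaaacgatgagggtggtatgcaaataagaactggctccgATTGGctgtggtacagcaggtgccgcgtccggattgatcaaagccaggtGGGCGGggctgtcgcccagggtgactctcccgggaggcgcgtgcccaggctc

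The SGK1 starts differ in base composition, with 33.6% G and C before start 1, 41.6% before start 2 and 76% before start 3, against a median of 58% over 35116 listed starts. A TATA box match on either strand was present before each of the 3 SGK1 starts, 96, 15 and 27 bases upstream in their order, and in 10.7% of all listed starts. Before starts 1 and 3 the match was on the opposite strand (TTTATA), and before start 2 on the strand of the gene. No such match was found before PIM1, PIM2 or PIM3. GC boxes were found 6 times before SGK1 start 3, 4 times before PIM1, 4 times in the PIM3 window and 1 time before PIM2, and 42.6% of all starts held at least 1. PIM2 alone held a CCAAT box, which 32% of starts hold. None of the 6 windows held TTCNNNGAA, the STAT palindrome (6.57% of starts), GNACA followed after 3 free bases by TGTNC, the glucocorticoid receptor palindrome (0.327%), TGTTTAC, a forkhead site (2.98%), TGACG, the core of the cAMP response element (21.2%), TGANTCA, the AP-1 site (6.57%), or CACGTG, the E-box (6.34%). These are letter matches on either strand of a short window, no 2 matches overlapped, and sites farther away were not searched. All 250 bases of the PIM3 window lie in an exon of PIM3 in GENCODE, as do 44 bases before SGK1 start 2 and 30 before SGK1 start 3 in exons of SGK1.

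In untreated cells all 6 genes were expressed at moderate levels. Per kilobase of annotated exon, PIM3 had the highest level at 17.4 ± 0.241 CPM per kb (SD, n = 3), followed by SGK2 at 9.77 ± 0.5 and PIM1 at 6.69 ± 0.329. SGK1 at 5.11 ± 0.279 and SGK3 at 4.96 ± 0.343 CPM per kb overlapped between their libraries. PIM2 was the lowest at 4.46 ± 0.0969 CPM per kb. The order depends on the length used: per kilobase of the longest transcript SGK2 ranked above PIM3, and PIM1 moved from the third to the fifth place. At 30 min PIM1 (9.85 ± 0.551 CPM per kb) overlapped SGK2 (9.52 ± 0.515), and SGK1 stood at 7.63 ± 0.391, clear of SGK3 below it. By the longest transcript PIM1 at 30 min was at 11.1 CPM per kb, below SGK1 at 13.9 and SGK2 at 20.8. At 360 min SGK3 (5.41 ± 0.201 CPM per kb), PIM2 (5.16 ± 0.379) and PIM1 (4.80 ± 0.409) each overlapped the next, and SGK1 was the lowest of all at 3.39 ± 0.0104. By the longest transcript PIM1 was the lowest there. In bulk RNA, a lower share of expressing cells and less RNA per cell cannot be told apart, here or in any value below.

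SGK1 and PIM1 had the widest ranges of the 6. The level of SGK1 was 47.9, 53.3 and 51.9 CPM in the 0 min libraries, 48.7, 51.5 and 46.3 CPM at 10 min, 72.0, 77.2 and 79.6 CPM at 30 min and 33.8, 34.0 and 34.0 CPM at 360 min. The 0 and 10 min libraries overlapped, every 30 min library lay above all of them, and every 360 min library lay below all others. PIM1 followed a like course at a lower level, with 19.0, 19.8 and 20.9 CPM at 0 min, 22.8, 23.0 and 26.1 CPM at 10 min, 28.1, 31.2 and 28.7 CPM at 30 min and 15.4, 13.0 and 14.5 CPM at 360 min. For PIM1 the 4 groups did not overlap at all, and the 10 min libraries lay between those of 0 and 30 min.

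The paralogs moved less. SGK2, a relative with a narrow tissue range that includes liver, was at 48.4, 53.5 and 50.1 CPM at 0 min, 47.3, 50.1 and 50.9 CPM at 10 min, 46.9, 49.0 and 52.2 CPM at 30 min and 60.6, 56.3 and 58.5 CPM at 360 min, where all 3 libraries lay above the 9 others. SGK3, whose PX domain binds phosphoinositides on endosomes, stayed within 29.6 to 36.1 CPM in all 12 libraries, with group means of 32.1, 33.1, 33.7 and 35.0 CPM in order of time. PIM2 was at 12.4, 12.0 and 12.5 CPM at 0 min, 11.9, 12.1 and 13.4 CPM at 10 min, 10.1, 10.7 and 12.4 CPM at 30 min and 14.1, 13.3 and 15.4 CPM at 360 min. Its 360 min libraries lay above those of 0 and 30 min and overlapped those of 10 min. PIM3 ranged from 37.4 to 44.1 CPM over all libraries, with group means of 42.9, 42.8, 39.5 and 40.6 CPM in order of time.

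**Figure D1:**
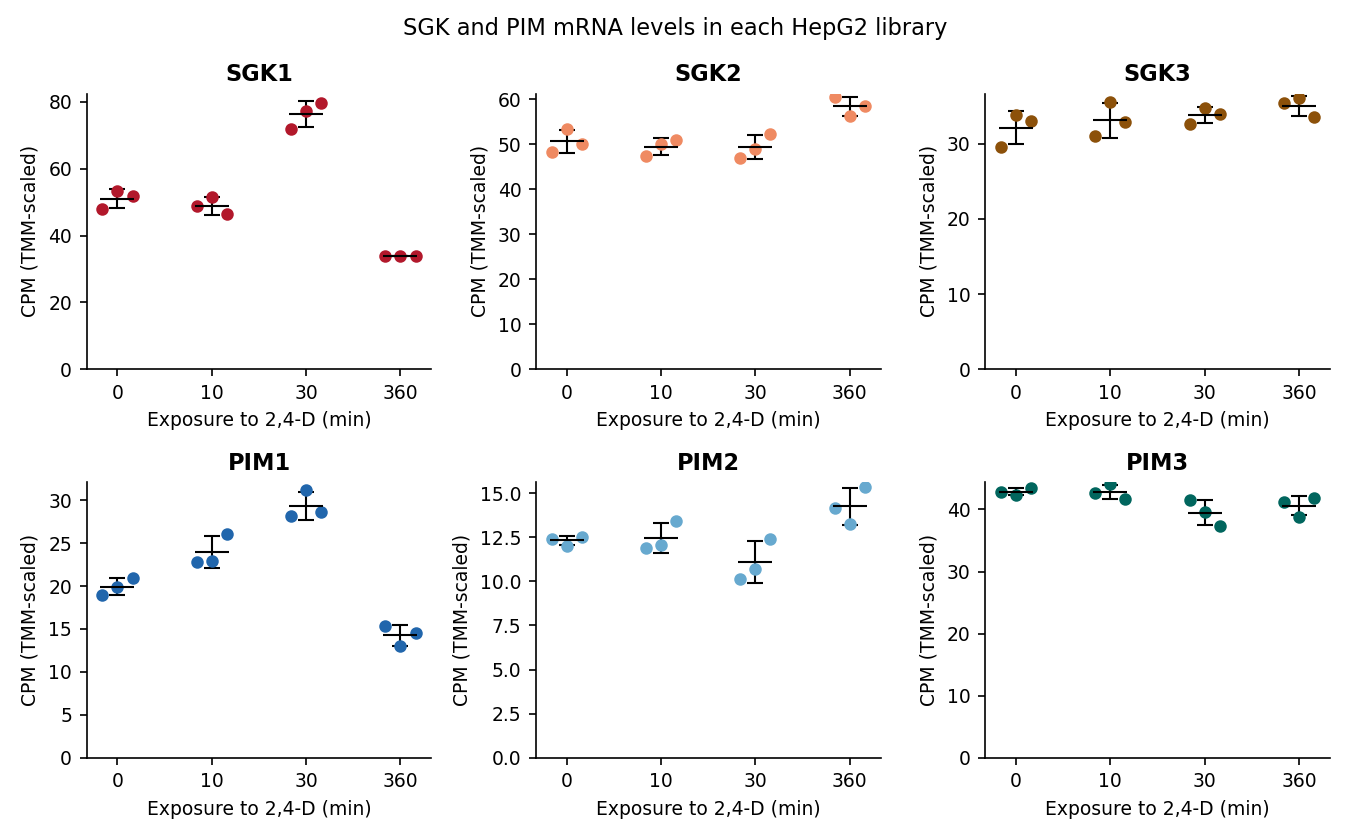
Level of each SGK and PIM gene (y axis, TMM-scaled CPM from 0) by exposure time in minutes (x axis), with 1 point per library and a bar for the mean ± SD of 3 libraries. SGK1 peaks at 76.3 CPM and PIM1 at 29.3 CPM at 30 min, and both have their lowest libraries at 360 min, while SGK2 and PIM2 have their highest mean at 360 min.

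At 10 min no member passed the test against 0 min (edgeR quasi-likelihood test, Benjamini-Hochberg adjusted p under 0.05 over all 17779 genes tested), where 0.0169% of all genes tested were called. DESeq2 and limma voom called 0 of the 6 as well, and 1 had an unadjusted p under 0.05. That gene was PIM1, at 0.265 ± 0.075 (log2 fold change ± SE, adjusted p = 0.23). It was the 1 member of 6 whose libraries did not overlap, beside 15.5% of all genes tested. SGK1 was at -0.065 ± 0.05 (adjusted p = 0.68) and the other 4 were between -0.04 and 0.04 on the log2 scale.

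At 30 min SGK1 stood 0.58 ± 0.05 and PIM1 0.56 ± 0.07 above 0 min on the log2 scale, which is 1.49-fold and 1.47-fold. These are the values by which the genes were chosen. They are the 2 of 6 members past the call threshold, which is how they came to be chosen. Of all genes tested 0.765% were called, 0.18% higher and 0.585% lower. The libraries did not overlap for 3 of 6 members, SGK1 and PIM1 higher and PIM3 lower, beside 14.5% of all genes tested. The choice of genes fixed these counts in part, and nothing is read from them. Beside them, SGK2 was at -0.04 ± 0.05, SGK3 at 0.07 ± 0.06, PIM2 at -0.16 ± 0.09 and PIM3 at -0.12 ± 0.04. Against 0 min replicate 1 alone, the library with low FOS, SGK1 was at 0.67 and PIM1 at 0.63.

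From 10 to 30 min SGK1 rose by 0.64 ± 0.05 in log2 terms (adjusted p = 5.7e-05). It was the 1 member called higher and 0 were called lower, where 0.574% of all genes tested were called, 0.163% higher and 0.411% lower. The libraries did not overlap for 3 of 6 members (SGK1, PIM1 and PIM3), beside 17.4% of all genes tested. PIM1 was at 0.29 ± 0.07 and did not pass (adjusted p = 0.12), although DESeq2 called it (adjusted p = 0.021). For both, the 30 min libraries are those that chose the genes. That choice fixed part of both rises, and nothing is read from their p-values here. The level of SGK1 at 10 min was close to that at 0 min, while PIM1 at 10 min lay about midway between 0 and 30 min in CPM.

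All 12 libraries set the filter, scaling and spread of every test. In its groups, the comparison of 360 with 10 min shares no library with the one that chose the genes. In it SGK1 fell to 0.694 of its 10 min level, a log2 fold change of -0.53 ± 0.05 (adjusted p = 1.9e-05), and PIM1 to 0.598, or -0.74 ± 0.08 (adjusted p = 2.3e-05). SGK2 rose by 0.24 ± 0.05 (adjusted p = 0.0037), or 1.18-fold. Thus 1 of 6 members was called higher and 2 lower, beside 25.6% of all genes tested, 12.9% higher and 12.7% lower. The same 3 members had libraries that did not overlap, as 41% of all genes tested did. PIM2 at 0.20 ± 0.09 (adjusted p = 0.12), SGK3 at 0.08 ± 0.06 (adjusted p = 0.36) and PIM3 at -0.07 ± 0.045 (adjusted p = 0.25) did not pass. Their 95% intervals on the fold scale were 1.01 to 1.31, 0.966 to 1.16 and 0.888 to 1.02, in that order. With a term for the side of the mitochondrial share on which a library lies, PIM2 passed (adjusted p = 0.047).

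Against 0 min, SGK1 fell by 0.59 at 360 min (SE 0.05, adjusted p = 1.2e-05) and PIM1 by 0.48 (SE 0.07, adjusted p = 0.00079), so that both ended below the untreated level rather than at it. SGK2 rose by 0.21 ± 0.05 (adjusted p = 0.012), a call that was lost without 0 min replicate 1 (0.17, adjusted p = 0.056) and without 360 min replicate 1 (0.18, adjusted p = 0.057). Of the 6 members 1 was called higher and 2 lower, beside 18.1% of all genes tested, 8.89% higher and 9.19% lower. The libraries of 5 of 6 members did not overlap, all but those of SGK3, beside 35.6% of all genes tested. PIM2 was at 0.21 ± 0.085 (adjusted p = 0.11), SGK3 at 0.12 ± 0.06 (adjusted p = 0.19) and PIM3 at -0.08 ± 0.04 (adjusted p = 0.27). The 0 min libraries took part in choosing the genes. Against 0 min replicate 1 alone, SGK1 was at -0.50, PIM1 at -0.41 and SGK2 at 0.275, all 3 called.

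Between 30 and 360 min the 2 families split by member. SGK1 fell by 1.17 (SE 0.05, adjusted p = 2.3e-08) and PIM1 by 1.03 (SE 0.07, adjusted p = 1.5e-06), to 0.445 and 0.489 of their 30 min levels. SGK2 rose by 0.25 ± 0.05 (adjusted p = 0.0033) and PIM2 by 0.37 ± 0.085 (adjusted p = 0.0074), 1.29-fold for the latter. SGK3 at 0.05 ± 0.06 and PIM3 at 0.04 ± 0.04 did not pass (adjusted p = 0.58 and 0.57). So 2 of 6 members were called higher and 2 lower, beside 22.7% of all genes tested, 11.4% higher and 11.3% lower. The same 4 had libraries that did not overlap, beside 39.8% of all genes tested. The comparison uses the 30 min libraries that chose SGK1 and PIM1. That choice fixed part of both falls and of the count called lower, and nothing is read from their p-values here.

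**Figure D2:**
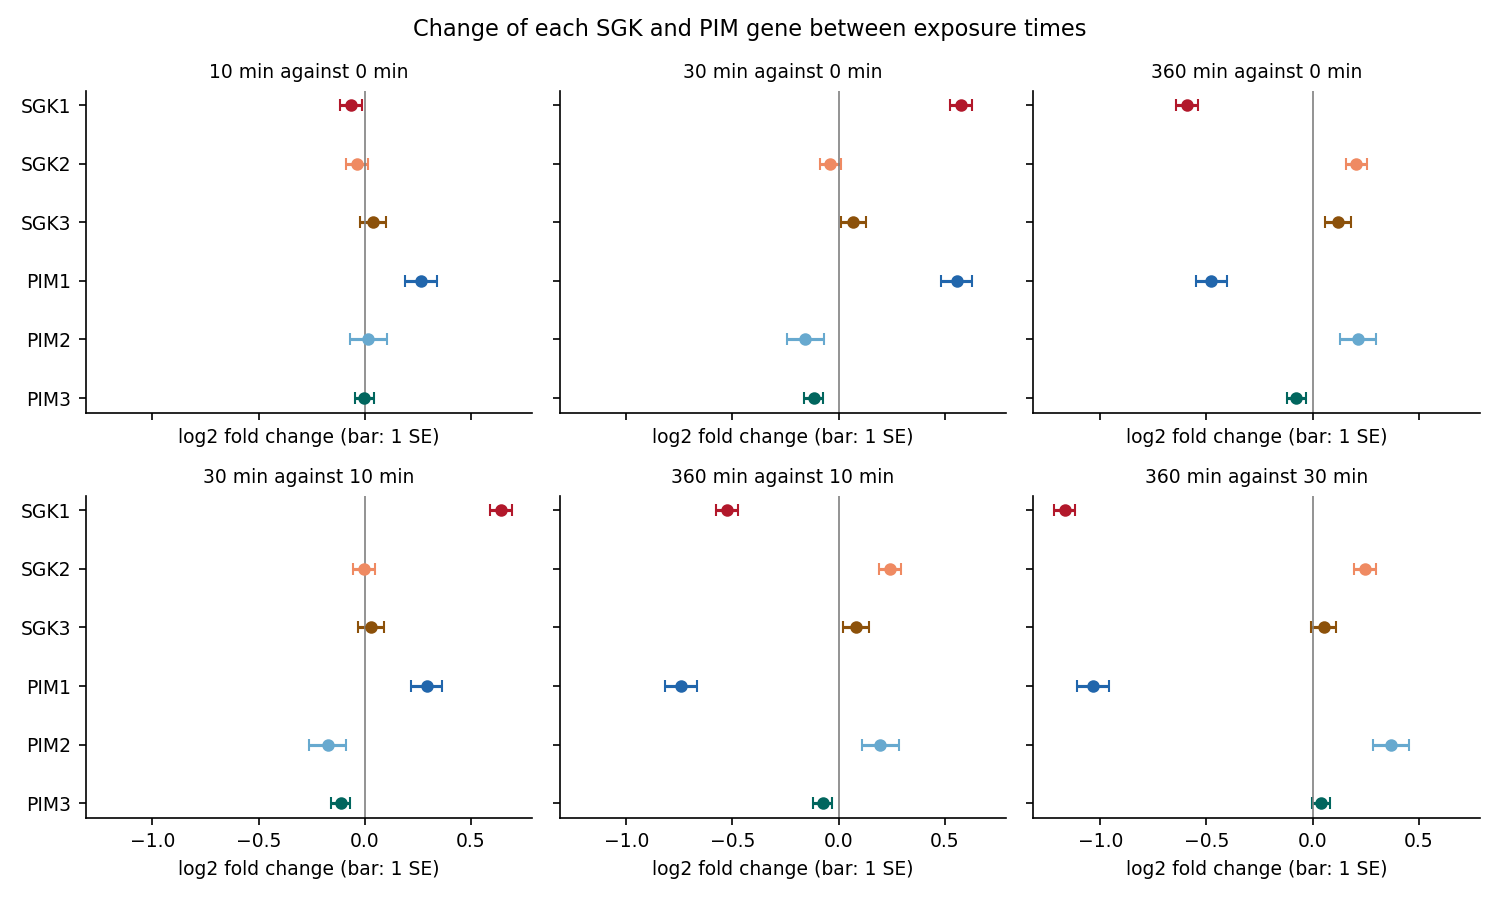
Log2 fold change (x axis) of each SGK and PIM gene (y axis) in 6 comparisons of exposure times, with points for the fitted change and bars for 1 SE (3 libraries per group). SGK1 and PIM1 lie right of 0 in 30 against 0 min (0.58 and 0.56) and left of it in all comparisons of 360 min, down to -1.17 and -1.03 against 30 min, while SGK2 lies right of 0 there.

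At 30 and 360 min the shares of SGK1 and PIM1 had shifted by a larger factor than the summed level of their family. At 30 min no paralog was called against 0 min, and a share also falls when another member rises. Summed over SGK1, SGK2 and SGK3, the level was 19.8 ± 1.09 CPM per kb at 0 min, 22.4 ± 1.01 at 30 min and 20.1 ± 0.392 at 360 min (SD, n = 3). SGK1 made up 25.8% ± 0.237 of that sum at 0 min, 25% ± 1.15 at 10 min, 34.1% ± 0.23 at 30 min and 16.9% ± 0.377 at 360 min. SGK2 made up 49.2% ± 0.768, 48.8% ± 1.37, 42.6% ± 0.649 and 56.2% ± 1.2 at the same times. The libraries of 30 and 360 min did not overlap in either share.

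In the PIM family the sum was 28.6 ± 0.581 CPM per kb at 0 min, 29.9 ± 0.564 at 30 min and 26.5 ± 1.33 at 360 min. The share of PIM1 went from 23.4% ± 0.767 at 0 min through 26.9% ± 1.58 and 32.9% ± 1.44 to 18.1% ± 0.87 at 360 min. PIM3, the main PIM transcript per kilobase, held 61% ± 0.558, 58.1% ± 2.32, 53.6% ± 2.3 and 62.4% ± 0.744. At 360 min the share of PIM2, 19.5% ± 0.71, stood beside that of PIM1, with libraries at 18.9% to 20.3% and 17.5% to 19.1%. These shares rest on the exon lengths used and include the values that chose the genes, and they were not tested.

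**Figure D3:**
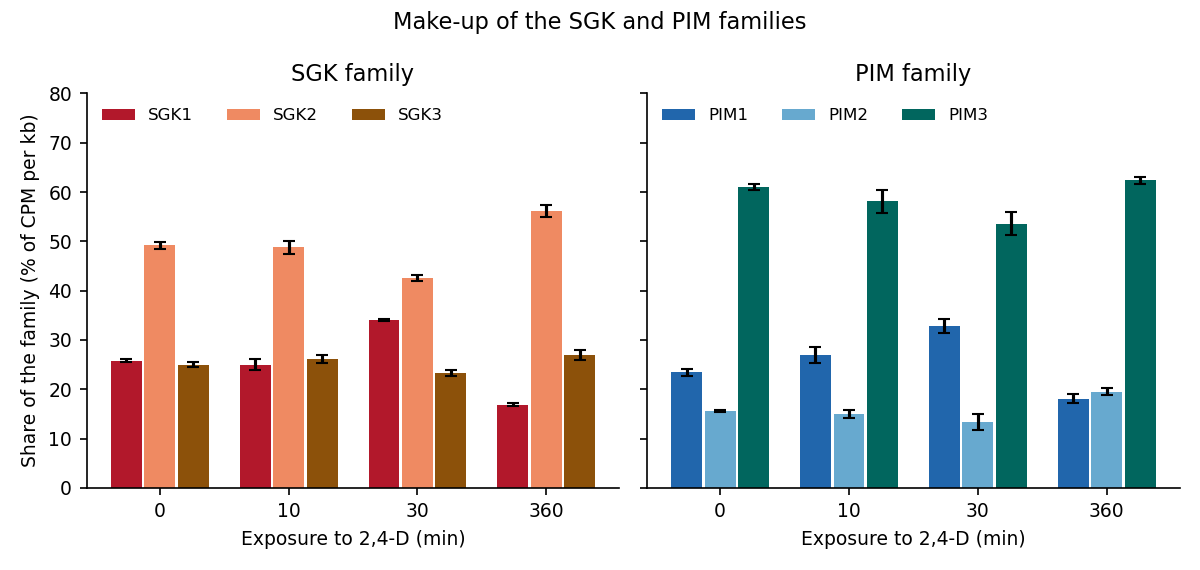
Share of each gene in the summed level of its family (y axis, percent of CPM per kb of exon) by exposure time in minutes (x axis), with bars for the mean and lines for the SD of 3 libraries. SGK1 goes from 25.8% to 34.1% and then 16.9% of the SGK family, and PIM1 from 23.4% to 32.9% and then 18.1% of the PIM family.

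The genes whose pattern lay nearest to SGK1 and to PIM1 were found by the root mean square difference of log2 CPM, each gene centred on its own mean over the 12 libraries, among 12435 genes. For SGK1 these were the zinc exporter gene SLC30A1 (0.16), AC110285.6 (0.17), a gene model of uncertain status in the annotation, PIM1 itself (0.17), DEPP1 (0.17), a FOXO-responsive gene, and GPCPD1 (0.18), a phosphodiesterase of choline metabolism. The median difference over all genes was 0.43. SGK2 lay at 0.50, SGK3 and PIM3 at 0.44 and PIM2 at 0.55 from SGK1. The 12 libraries include those that chose SGK1 and PIM1. That choice fixed in part how near SGK1 and PIM1 lie to each other.

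PIM1 lay nearest to MYLIP (0.12), the ubiquitin ligase that degrades the LDL receptor, TXNIP (0.13), which limits glucose uptake, FRAT1 (0.13), a GSK3 inhibitor, KLF11 (0.14), a zinc finger repressor, and DEPP1 (0.15). SGK1 was the tenth in that order at 0.17, against a median of 0.40, and the choice of the genes bears on this place too. DEPP1 is in both sets. At 10 min the neighbours varied within each set: the log2 change from 0 min was -0.06 for AC110285.6, 0.10 for GPCPD1 and 0.28 for DEPP1 around SGK1, and 0.09 for FRAT1, 0.17 for KLF11 and 0.21 for MYLIP around PIM1. SLC30A1 was at 42.2 ± 2.37 CPM at 0 min and 42.7 ± 4.22 CPM at 10 min, then at 57.7 ± 1.97 CPM at 30 min and 34.3 ± 1.25 CPM at 360 min. TXNIP was at 57.0 ± 3.4 CPM at 0 min and 79.0 ± 4.5 CPM at 10 min, with 83.7 ± 2.11 CPM at 30 min and 43.4 ± 0.564 CPM at 360 min. These genes were picked for likeness, so their changes were not tested here.

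**Figure D4:**
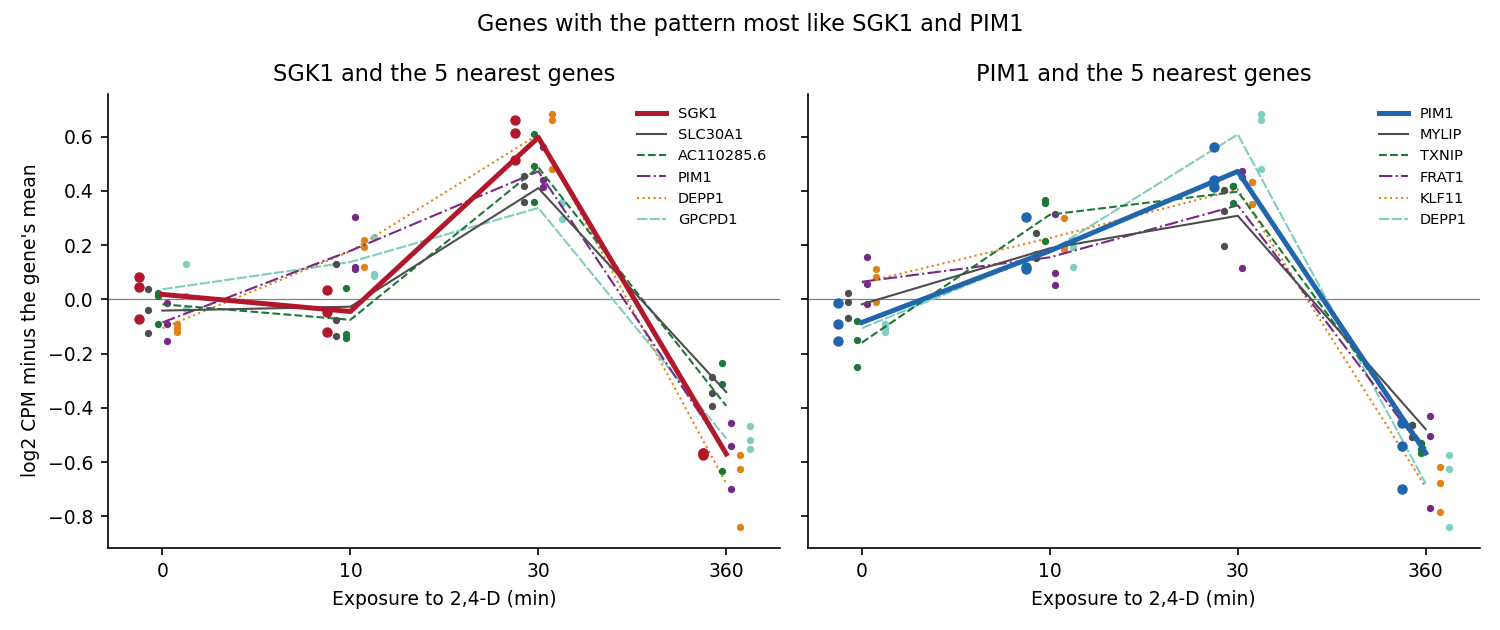
Log2 CPM minus the mean of each gene (y axis) by exposure time in minutes (x axis) for SGK1 (left) and PIM1 (right) with the 5 genes nearest in pattern, with lines through the group means and points for the 12 libraries. In both panels the genes are highest at 30 min and lowest at 360 min. At 10 min the neighbours of both genes vary.

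Genes that feed into or follow the kinases were described by 8 lists, of which 148 different genes were tested. At 10 min 0 of them were called, 28 had an unadjusted p under 0.05, DESeq2 called 7 and limma voom 0. Over all 17779 genes tested, 10.9% had an unadjusted p under 0.05 and limma voom called 3. DESeq2, run on every gene with a count and with its own filter, called 175 over all genes. Among SGK partners the smallest p-values belonged to the kinase gene WNK1 at 0.143 ± 0.029 (adjusted p = 0.12), SCNN1A at 0.199 ± 0.048 (adjusted p = 0.17), the classical substrate NDRG1 at 0.423 ± 0.107 (adjusted p = 0.19) and NEDD4L at 0.104 ± 0.026 (adjusted p = 0.19). At 30 min 7 were called, 0 higher and 7 lower, where 0.765% of all genes tested were called, 0.18% higher and 0.585% lower. The list of the glucocorticoid receptor and its targets (below, glucocorticoid receptor targets) held 4 of these among 16 tested. Its median was -0.13, against 0.003 over all genes. TSC22D3, KLF9, ZBTB16, HSD11B1 and TFCP2L1 of that list did not pass the filter. Whether the receptor bears on SGK1 was not tested. ERRFI1, an inhibitor of EGFR, fell by 0.47 (SE 0.06, adjusted p = 0.0023), BCL6, a transcriptional repressor, by 0.30 (SE 0.04, adjusted p = 0.0026) and PCK1, an enzyme of gluconeogenesis, by 0.36 (SE 0.06, adjusted p = 0.015).

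The phosphatase gene DUSP1 fell by 1.67 at 30 min (SE 0.31, adjusted p = 0.027), from 41.9 ± 22.6 to 13.2 ± 1.46 CPM, and the 0 min libraries were far apart. Of the STAT targets 3 of 17 fell (median -0.001): BCL6, JUNB by 1.04 (SE 0.14, adjusted p = 0.0026) and the survival gene MCL1 by 0.39 (SE 0.06, adjusted p = 0.009). The osmotic stress list held 1 of 15, the amino acid transporter gene SLC38A2, which fell by 0.41 (SE 0.06, adjusted p = 0.0028). None of these 7 was called against 0 min replicate 1 alone, which leaves 1 library on the untreated side. There ERRFI1 was at -0.41 (adjusted p = 0.075), BCL6 at -0.26 (adjusted p = 0.11), SLC38A2 at -0.285 (adjusted p = 0.096) and PCK1 at -0.25 (adjusted p = 0.39). JUNB was at -0.65 (adjusted p = 0.096), MCL1 at -0.20 (adjusted p = 0.23) and DUSP1 at -0.35 (adjusted p = 0.47). DUSP1 and PCK1 also lost the call without 0 min replicate 2 or 3, or without 30 min replicate 2 or 3, DUSP1 without 30 min replicate 1, and MCL1 without 30 min replicate 3. Over the 18 alternatives run, DUSP1 lost the call in 11, PCK1 in 7 and MCL1 in 3. The inputs to SGK (0 of 18), SGK partners and substrates (0 of 22), cytokine and JAK-STAT genes (0 of 19), PIM substrates (0 of 19) and related kinases (0 of 24) held no call. At an unadjusted p under 0.05 these lists held 1, 3, 1, 4 and 1 genes in that order, where 9.29% of all genes tested had one, and DESeq2 and limma voom called 0 in each. Against 0 min replicate 1 alone, MYC, a member of the PIM substrate and STAT target lists, moved up, at 0.30 beside 0.15 in the main fit.

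At 360 min 63 of the 148 genes were called against 0 min, 25 higher and 38 lower, beside 18.1% of all genes tested, 8.89% higher and 9.19% lower. No list was tested as a set. Among the inputs to SGK, 0 of 18 rose and 2 fell (median 0.015, against 0.001 over all genes): IGF1R, the receptor for insulin-like growth factors, by 0.30 (SE 0.045, adjusted p = 0.00061), and the AKT phosphatase gene PHLPP2 by 0.21 (SE 0.06, adjusted p = 0.021). The call of PHLPP2 was lost when 0 min replicate 2, 0 min replicate 3, 360 min replicate 1 or 360 min replicate 2 was omitted (adjusted p 0.064 to 0.092), and against 0 min replicate 1 alone (-0.10, adjusted p = 0.43). The mTORC2 subunit gene RICTOR was at 0.10 ± 0.045 (adjusted p = 0.16).

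Among SGK partners and substrates 3 of 22 rose and 6 fell (median -0.02), beside 8.89% and 9.19% of all genes tested. SCNN1A, a subunit of the epithelial sodium channel that SGK1 is known to regulate, went from 60.3 ± 3.21 to 38.8 ± 2.04 CPM (log2 fold change -0.63 ± 0.05, adjusted p = 3.9e-06). SLC9A3R2, a scaffold of sodium-proton exchange, fell by 0.36 (SE 0.04, adjusted p = 0.00014) and INPPL1, an inositol phosphatase, by 0.39 (SE 0.04, adjusted p = 3.3e-05). SYVN1, a ubiquitin ligase of the endoplasmic reticulum that degrades SGK1, rose by 0.25 ± 0.04 (adjusted p = 0.0018), and the other genes that rose were NEDD4 and RANBP1.

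Glucocorticoid receptor targets had 3 of 16 members higher and 7 lower at 360 min (median -0.18, against 0.001 over all genes). Of all genes tested 8.89% were called higher and 9.19% lower. ERRFI1 fell by 0.52 (SE 0.06, adjusted p = 8.3e-05) and FKBP5, a chaperone of the receptor, by 0.27 (SE 0.04, adjusted p = 0.00054). DUSP1 fell by 2.23 (SE 0.32, adjusted p = 0.00046), and by 0.91 against 0 min replicate 1 alone (adjusted p = 0.0021). PER1, NFKBIA and BCL6 rose. The osmotic stress list had 4 of 15 higher and 4 lower (median -0.04), with the chaperone gene HSPA4L up by 0.34 ± 0.05 (adjusted p = 0.00049) and the glucose transporter gene SLC2A1 down, at -0.50 ± 0.03 (adjusted p = 1.8e-06).

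Cytokine receptors and JAK-STAT genes, the known inputs to PIM1, had 4 of 19 higher and 9 lower at 360 min (median -0.17). The shares over all genes tested were 8.89% higher and 9.19% lower. STAT3 went from 101.9 ± 4.05 to 76.0 ± 0.433 CPM (log2 fold change -0.42 ± 0.04, adjusted p = 9e-06). JAK3 fell by 0.66 (SE 0.06, adjusted p = 1.4e-05), the interferon gamma receptor gene IFNGR1 by 0.44 (SE 0.04, adjusted p = 3e-05) and STAT5B by 0.39 (SE 0.05, adjusted p = 0.00023). LIFR, IL6ST and PTPN2 were among the genes of this list that rose.

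Of the STAT targets 4 of 17 rose and 5 fell at 360 min (median -0.06), beside 8.89% and 9.19% of all genes tested. SOCS3, the feedback inhibitor of JAK signalling, fell by 1.71 (SE 0.18, adjusted p = 5e-05) from a low level of 0.92 ± 0.0997 CPM, the cyclin gene CCND1 by 0.36 (SE 0.04, adjusted p = 3.2e-05) and MYC by 0.38 (SE 0.05, adjusted p = 2e-04). SOCS2 and JUNB fell too. BCL6 and the 3 fibrinogen chain genes rose, FGB by 0.31 ± 0.05 (adjusted p = 0.00059).

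PIM substrates and partners had 5 of 19 higher and 1 lower at 360 min (median 0.06), beside 8.89% and 9.19% of all genes tested. CDKN1B, which encodes the cell cycle inhibitor p27 that PIM kinases phosphorylate, rose from 40.5 ± 1.78 to 55.0 ± 1.85 CPM (log2 fold change 0.44 ± 0.04, adjusted p = 2.8e-05). HSP90AA1, a chaperone that stabilises PIM1, rose by 0.23 ± 0.03 (adjusted p = 0.00037). The others that rose were CDKN1A, AKT1S1 and HSP90AB1, the last by 0.11 (adjusted p = 0.014), a call lost without 360 min replicate 1 (adjusted p = 0.051) or replicate 2 (adjusted p = 0.1), and the 1 that fell was MYC. Among related kinases 3 of 24 rose and 5 fell (median 0.03), with RPS6KA3, an RSK kinase, up by 0.26 ± 0.03 (adjusted p = 0.00023) and PASK down, at -0.30 ± 0.05 (adjusted p = 0.0011).

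**Figure D5:**
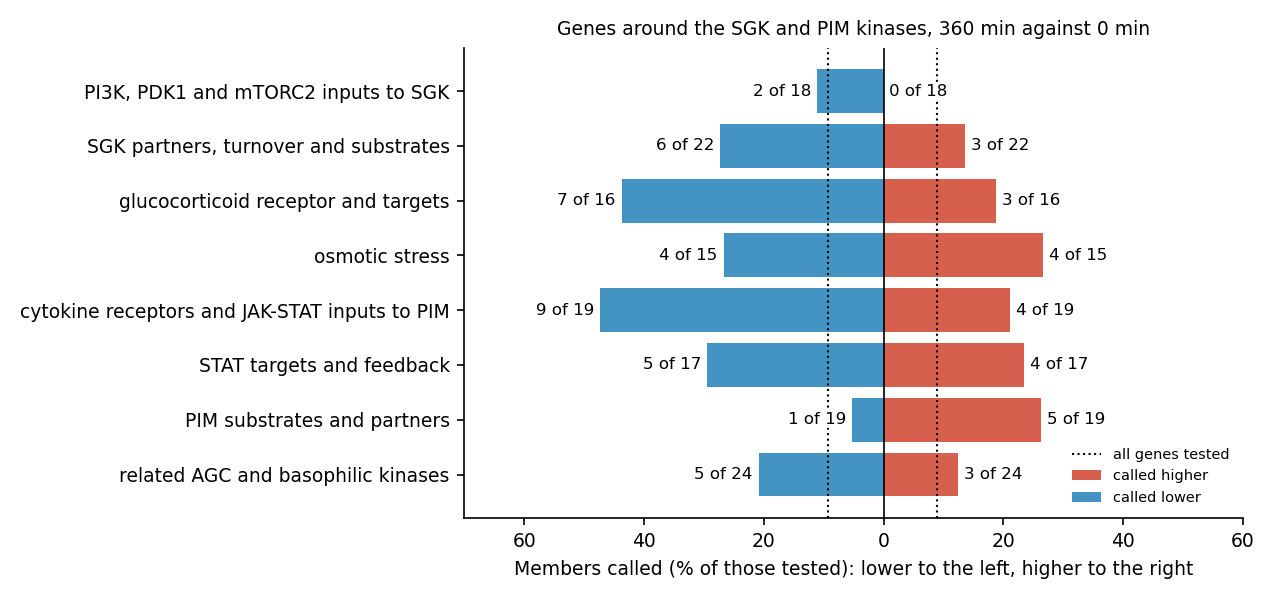
Members of 8 gene lists called at 360 against 0 min as a percentage of those tested (x axis, lower to the left and higher to the right), with the counts beside each bar and dotted lines at the share of all genes tested called in each direction (9.19% lower and 8.89% higher). Cytokine and JAK-STAT genes (9 of 19) and glucocorticoid receptor targets (7 of 16) have the widest bars on the lower side, and PIM substrates have 5 of 19 on the higher side.

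In the comparison of 360 with 10 min neither group holds a library that chose the genes, though all 12 libraries set the spread. In it 74 of the 148 list genes were called, 29 higher and 45 lower, beside 25.6% of all genes tested. SCNN1A fell by 0.83 (SE 0.05, adjusted p = 3.3e-07), STAT3 by 0.51 (SE 0.04, adjusted p = 1.2e-06) and SOCS3 by 2.01 (SE 0.19, adjusted p = 1.1e-05). The SGK inputs held 0 higher and 3 lower of 18, SGK partners 3 and 10 of 22, glucocorticoid receptor targets 3 and 7 of 16, and cytokine and JAK-STAT genes 4 and 10 of 19. CDKN1B rose by 0.49 ± 0.04 (adjusted p = 8.9e-06). The osmotic stress list held 4 and 4 of 15, STAT targets 5 and 5 of 17, PIM substrates 6 and 1 of 19 and related kinases 5 and 6 of 24. Every 10 min library has the higher mitochondrial share, as has 1 of 3 at 360 min; with a term for that share 70 of the 148 were called.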

How the data were processed

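The submitters' processing notes name HISAT2, DESeq2 and GRCh38, without version or role. Neither the counting program nor the annotation release nor the strand setting is given in the sources used here. The authors deposited raw counts for each gene as whole numbers, 1 column a sample. Gene positions and exon lengths come from GENCODE 29 (58394 of 60612 identifiers matched, 96.34%). These counts went unchanged into edgeR 4.0.16 (R 4.3.3): filterByExpr left 17779 genes, libraries were scaled by TMM (factors 0.981 to 1.014), and a quasi-likelihood fit with a coefficient for each time and 8 residual degrees of freedom used all 12 libraries. A call means a Benjamini-Hochberg adjusted p under 0.05; every adjusted p comes from this test unless another tool is named. SE is the absolute log2 fold change divided by the square root of F. Where the direction stands in the verb, the size is given with its SE in parentheses. The test was also run on simulated counts in which replicates differed only by depth and random spread. No statement here rests on that run. Floors cover counting error only. Log2 CPM for the pattern search used a prior count of 2.

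The genes, lists and alternatives were chosen with earlier results of these data known. The 6 kinases are named whatever their values; of each list up to 4 genes with the smallest p per comparison, and, after their values were seen, the members of counts of 5 or fewer; and the 5 genes nearest in pattern, where the mean log2 CPM reached 1. Alternatives were DESeq2 1.42.0, limma 3.58.1 (voom), other scalings, filters and thresholds, the compared groups alone, a replicate block, a mitochondrial share term, 0 min replicate 1 alone and the omission of each library. Some list genes are counted but not reported here by name.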

Additional observations from a re-analysis of the deposited data

Results flagged for a closer look

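For 4 of the 6 kinases the change from 0 min differed between 30 and 360 min by the test of 360 against 30 min. The difference (360 min minus 30 min, log2) was -1.17 ± 0.05 for SGK1 (0.58 at 30 min and -0.59 at 360 min) and -1.03 ± 0.07 for PIM1 (0.56 and -0.48). It was 0.25 ± 0.05 for SGK2 (-0.04 and 0.21) and 0.37 ± 0.09 for PIM2 (-0.16 and 0.21). The 30 min values of SGK1 and PIM1 chose the genes. The choice therefore fixed part of the differences of SGK1 and PIM1, and the test adds no support for them. The 30 min values of SGK2 and PIM2 and the 360 min value of PIM2 did not pass the test against 0 min, and that of SGK2 at 30 min turned positive under 2 alternatives (up to 0.03), so opposite signs are not shown for these 2.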

How the results depend on the processing

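Leaving aside 30 against 0 min, which chose the genes, 10 of 11 calls of the 6 kinases held under every alternative run. The exception was SGK2 at 360 against 0 min, given above and not called at an adjusted p under 0.01 either. Of the comparisons counted there, only 360 against 10 min shares no library in its groups with that choice. The calls of SGK1 at 30 against 10 min, and of SGK1 and PIM1 at 360 against 30 min, rest in part on the values that chose them. With 0 min replicate 1 as the lone untreated library, 1 member in place of 2 was past the threshold at 30 against 0 min, as PIM1 missed the threshold (adjusted p = 0.05 after rounding). DESeq2 called 2 members in place of 1 at 30 against 10 min. No called value changed sign; 9 of 36 values changed sign under some alternative while called neither way. The fit with the replicate number as a block called 0, 2, 3, 1, 3 and 4 members in the 6 comparisons, as without it. Same-numbered libraries deviated together at r over 0.1 in 5 of 18 pairs (r -0.17 to 0.15), so the numbers were not taken as pairs. Member levels moved by less than 1 SD under total-count and RLE scaling. Over all genes, the count called was 1 to 175 at 10 min (3 in the main test), 52 to 276 at 30 min (136), 1718 to 4322 at 360 min (3215), 37 to 291 for 30 against 10 min (102), 2575 to 5867 for 360 against 10 min (4560) and 2256 to 5250 for 360 against 30 min (4034). Omitting 1 library moved the count to between 1 (without 10 min replicate 1) and 25 (without 0 min replicate 1) at 10 min; to 61 to 79 at 30 min without any 1 of the compared libraries except 0 min replicate 1 (163), and to 39 (without 10 min replicate 1) to 51 for 30 against 10 min, except without 10 min replicate 2 (83). The cause of these shifts was not tested. Antisense or overlapping transcripts cannot be told apart, since the use of strand is not known.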
